A study of Mus musculus with 27 samples.

Results

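The transcripts described here come from 10 genes of the photoreceptor ribbon synapse, followed by RNA-seq in whole retina of wild type C57BL/6J mice from embryonic day 14 (E14) to postnatal day 60 (P60). The genes were taken by symbol from a table of 38168 annotated features, and of repeated symbols the entry of highest mean over all libraries was kept. Values are CPM (counts per 1e6 reads), that is, reads of a feature scaled to the total of its library. Of the 27 libraries, 3 were from E14, 3 from E17, 4 from P1, 3 from P6, 4 from P15, 4 from P28 and 6 from P60. No genotype or treatment distinguished the groups, and age was the only factor. The study took pooled retinas for each library, apart from single mice for some of the P60 libraries, and neither its methods nor the labels state which libraries those were. Mice from P6 on were males, whereas E14, E17 and P1 samples included mixed sexes. Age and sex composition therefore cannot be told apart between P1 and P6, or between E14 or E17 and the ages from P6 on. The labels do not say whether the libraries of an age came from separate litters, and p-values therefore measure the spread between these libraries.

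Rods and cones release glutamate continuously in the dark, and they do so at ribbon synapses, where a plate-like ribbon holds vesicles next to the calcium channels that trigger their fusion. The channel is an L-type channel whose pore, auxiliary subunit and calcium-binding partner are retinal forms, and the fusion machinery uses syntaxin 3 and complexins 3 and 4 in place of the forms found at most brain synapses. Other parts of the ribbon synapse, including the scaffold proteins Bassoon, Piccolo and RIM2, are shared with conventional synapses. On this background the genes were divided into 5 ribbon-restricted members (Cacna1f, Cacna2d4, Cabp4, Cplx3 and Cplx4) and 5 general members (Ctbp2, Bsn, Pclo, Rims2 and Stx3). Ribbons also occur in bipolar cells, and complexin 3 in some amacrine cells, so whole retina cannot assign these transcripts to photoreceptors alone. Fewer cells of a type and less RNA per cell cannot be told apart in whole tissue.

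Libraries held 7076646 to 11330762 reads over the listed features, with a median of 7968785, so that 1 read corresponded to 0.0882 to 0.141 CPM and 3 reads to at most 0.424 CPM. All 10 members passed the filter on low values. Of the markers of retinal cell types, all 6 of rods, 5 of cones and 6 of bipolar cells were listed. The summed level of the rod markers was 23.0 to 30.3 CPM at E14, 3308 to 4103 at P6 and 23989 to 29525 at P60. Cone markers summed to 7.002 to 7.89 CPM at E14 and 460 to 568 at P60, and bipolar markers to 23.9 to 27.1 and 1299 to 1728. The sum of 6 amacrine and ganglion cell markers stayed between 464 and 858 CPM over all ages. Markers of other tissues were low at every age, from 2.64 to 32.1 CPM for the 5 of retinal pigment epithelium, from 10.7 to 50.3 for the 5 of blood and from 2.26 to 9.44 for the 3 of 5 lens markers that were listed. The part that these changes in cell types took in the results below was not tested.

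To determine how far the ribbon synapse genes differ between immature and mature retina, the mean of P15, P28 and P60 was compared with the mean of E14 and E17. A gene was called higher or lower with limma at an adjusted p under 0.05 and a log2 fold change of at least 1 on the log2(CPM + 1) scale, which understates the change of low genes. In mature retina 9 of the 10 members rose and 0 fell, where 14.9% of all features tested were called higher and 16.1% lower. No member was lower at an unadjusted p under 0.05, and edgeR on the recovered reads also called 9 higher and 0 lower. All 5 ribbon-restricted members rose, with a median log2 fold change of 5.64. Of the general members 4 of 5 rose, with a median of 1.499, against a median of -0.06 over all features tested.

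**Figure D1:**
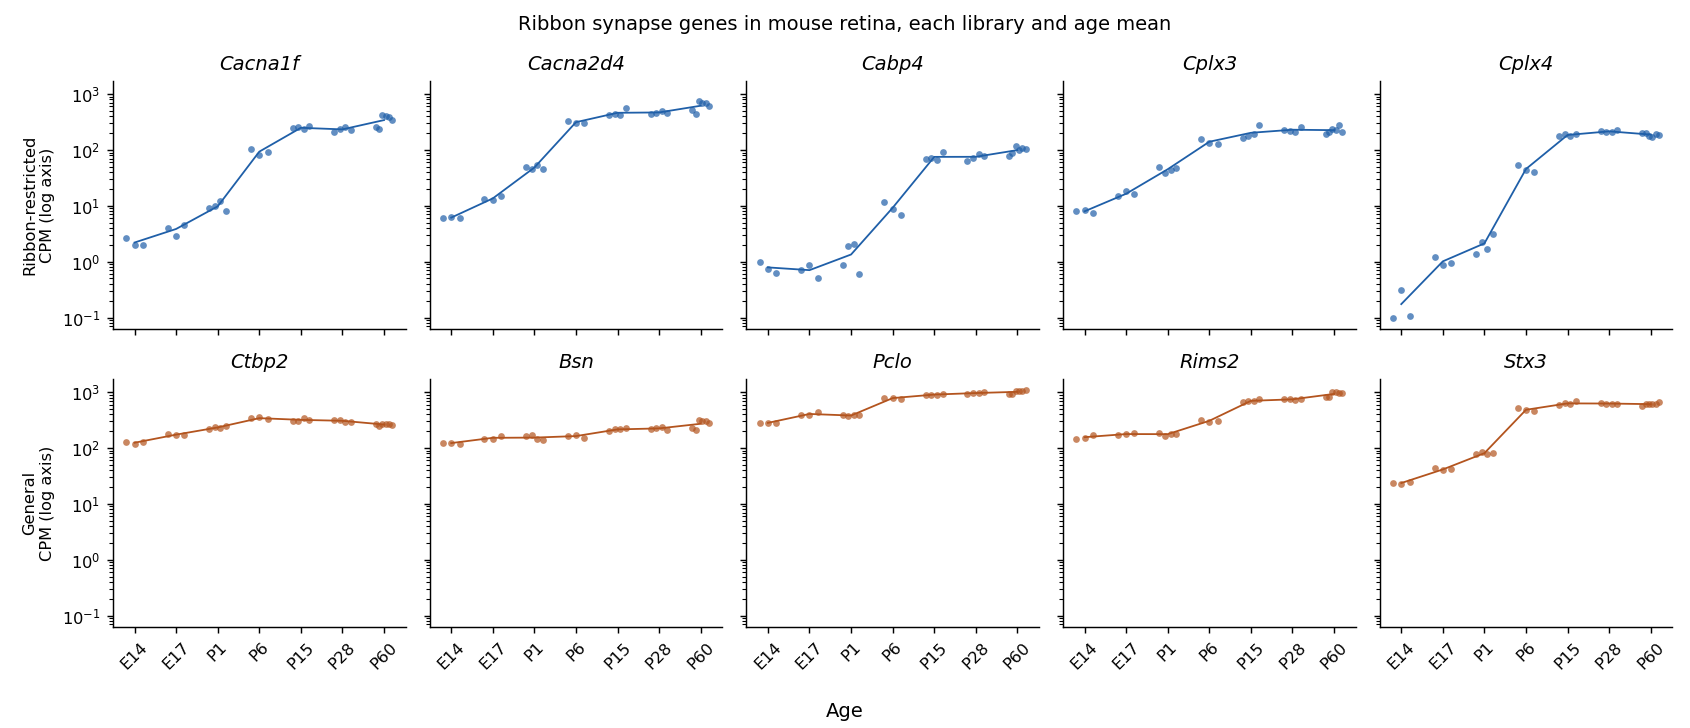
Levels of the 10 genes (CPM, log axis) in each of the 27 libraries at 7 ages, with a line through the age means; ribbon-restricted members are in the upper panels and general members in the lower. Cplx4 runs from 0.10 to 230 CPM over single libraries, whereas Bsn stays between 120 and 313 CPM.

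The calcium channel genes were low in embryonic retina, and all 3 rose. Cacna1f, which encodes the pore-forming subunit of the Cav1.4 channel (X chromosome, 7607083 to 7635196, plus strand, GRCm38), was at 2.6, 2.0 and 2.0 CPM in the 3 libraries at E14 and 4.09, 2.91 and 4.56 at E17. It reached 9.20, 9.83, 12.2 and 7.93 CPM at P1 and 105, 81.9 and 92.5 at P6. All libraries of P6 thus lay above those of P1, and all those of P1 above those of E17. The gene was at 243, 254, 236 and 263 CPM at P15, at 209, 238, 258 and 228 at P28, and from 236 to 429 at P60 with a median of 365. In mature retina it was 90.8-fold higher than in embryonic retina (log2 fold change 6.11 ± 0.10, standard error; limma adjusted p = 6.7e-31).

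Cacna2d4 encodes the α2δ4 auxiliary subunit of the same channel (chromosome 6, 119236526 to 119352407, plus strand). Its libraries held 6.00, 6.33 and 6.10 CPM at E14, 13.1, 12.8 and 14.8 at E17, and 335, 299 and 307 at P6. In mature retina it was 52.4-fold higher (log2 fold change 5.64 ± 0.08; limma adjusted p = 3.6e-33). Cabp4, on chromosome 19 (4135423 to 4144033, minus strand), encodes the calcium-binding protein that adjusts the voltage at which Cav1.4 opens. It was at 1.0, 0.738 and 0.632 CPM at E14, and at 0.859, 1.89, 2.04 and 0.591 CPM at P1, so these ages overlapped. At P6 its libraries held 11.9, 8.87 and 6.89 CPM, and at P15 they held 68.9, 72.3, 66.7 and 92.6. Cabp4, which was first called higher between P1 and P6, was 111-fold higher in mature retina (log2 fold change 5.57 ± 0.12; limma adjusted p = 1.3e-27), a ratio that rests on 45 reads over the 6 embryonic libraries. Exons of Cabp4 overlap those of Gpr152 on the opposite strand, and the sources used here do not state whether counting used the strand.

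The complexin genes differed from each other in embryonic retina. Complexins bind the assembled fusion complex and regulate release, and the forms 3 and 4 are typical of ribbon synapses. Cplx4 (chromosome 18, 65955722 to 65970237, minus strand) had 1 to 3 reads in each library at E14, which is at the limit that a count of 0 allows. It was at 1.23, 0.882 and 0.932 CPM at E17 and at 1.35, 2.27, 1.70 and 3.19 at P1, then reached 54.0, 43.3 and 39.7 at P6 and 180, 191, 178 and 193 at P15. Its difference between mature and embryonic retina was 331-fold (log2 fold change 7.003 ± 0.09; limma adjusted p = 4.5e-34), the largest of the 10 members, on 36 embryonic reads with a 95% Poisson interval of 25.2 to 49.8 reads. Cplx3 (chromosome 9, 57599992 to 57606281, minus strand) was detected at 8.10, 8.33 and 7.47 CPM at E14 and was at 159, 132 and 130 at P6. It was 18.0-fold higher in mature retina (log2 fold change 4.13 ± 0.08; limma adjusted p = 1.0e-28), the smallest difference of the ribbon-restricted members.

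Among the general members, Stx3 behaved unlike the rest. Syntaxin 3 is a membrane protein of the fusion complex that is also used in epithelia, which is why it was counted as general. By its use at ribbons in place of a brain form it could also have been grouped with the ribbon-restricted members. Medians and shares given by group depend on this choice. Stx3 (chromosome 19, 11775118 to 11819403, minus strand) was at 23.6, 22.7 and 24.5 CPM at E14, 78.4, 86.2, 78.2 and 80.9 at P1, and 520, 474 and 456 at P6. At P15, P28 and P60 it held between 553 and 686 CPM in every library. It was 19.1-fold higher in mature retina (log2 fold change 4.27 ± 0.04; limma adjusted p = 1.6e-36), within the range of the ribbon-restricted members and above every other general member.

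The scaffold genes were abundant from the first age. Pclo encodes Piccolo, a very large active zone protein with a short form at ribbons (chromosome 5, 14514918 to 14863459, plus strand). It was at 283, 280 and 282 CPM at E14 and from 924 to 1076 at P60, a 2.79-fold difference between mature and embryonic retina (log2 fold change 1.499 ± 0.04; limma adjusted p = 1.9e-26). Rims2 encodes RIM2, which links vesicles to calcium channels (chromosome 15, 39198261 to 39684372, plus strand). It was at 148, 150 and 171 CPM at E14, at 324, 288 and 308 at P6 and at 661, 683, 705 and 747 at P15. It was 4.74-fold higher in mature retina (log2 fold change 2.23 ± 0.05; limma adjusted p = 1.0e-27). Bsn encodes Bassoon, which anchors the ribbon to the membrane (chromosome 9, 108096022 to 108190384, minus strand). It was at 125, 123 and 120 CPM at E14, 167, 174 and 150 at P6, and 198, 217, 219 and 227 at P15. Its log2 fold change of 0.78 ± 0.07 passed the adjusted p (6.5e-12 by limma) but not the minimum fold, so Bsn was the only member not called. Annotated exons of Pclo overlap Gm26918 and Gm26954 on the opposite strand, and those of Bsn overlap Gm47303 on the same strand.

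Ctbp2 carries 2 proteins, the transcriptional corepressor CtBP2, used in most cells, and RIBEYE, the main structural protein of the ribbon, which starts from an internal promoter and shares the later exons. In the reference annotation of GRCm38 (GENCODE), Ctbp2 runs from 132987563 to 133124354 on the minus strand of chromosome 7. Its transcript Ctbp2-201 starts at the far end of the gene and codes for 445 residues, whereas Ctbp2-214 starts within it at 133015248 and codes for 988. Values per gene cannot separate the products. The main entry of Ctbp2 was at 127, 120 and 127 CPM at E14, rose to 345, 352 and 329 at P6 and was at 245 to 272 at P60. Between mature and embryonic retina it was 1.99-fold higher (log2 fold change 1.003 ± 0.04; limma adjusted p = 6.1e-21). This lies at the minimum fold, and the call was lost at values of 0.99 to 0.9998 when E14 replicate 2, E17 replicate 3, P15 replicate 3, P28 replicate 2 or P60 replicate 3 was left out. It was also lost when both entries of the symbol were summed (0.97). The second entry of the symbol ran at a lower level, with a mean of 27.1 CPM at E14 and 68.4 at P6, and the main entry was 4.13 to 6.33 times as high in single libraries. Its log2 fold change between mature and embryonic retina was 0.80 ± 0.06 (limma adjusted p = 3.9e-13). What distinguishes the 2 entries is not given in the sources used here, and exons of Ctbp2 also overlap Fgfr2 on the same strand.

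Promoter sequences were examined because 9 of the 10 members rose between embryonic and mature retina, and the photoreceptor transcription factors CRX and NRL bind short motifs near many rod and cone genes. RefSeq windows of 250 bases before to 50 after a start (GRCm38.p6) were at hand for 6 of the 10 members, with 2 starts for Ctbp2, making 7 windows. The motifs searched on both strands were TAATCC, the core bound by CRX and OTX2, which 7.06% of 32851 promoter windows of this length contain, and TGCTGA, the core of an NRL site, which 19.5% contain. No match of 1 motif overlapped a match of the other. A match was found in 3 windows, shown here as 30 bases on the strand of the gene with the motif, or its reverse complement GGATTA or TCAGCA, in capitals.
Ctbp2, internal start: taaggtttcagaGGATTAataatttaggtc
Cplx3: cctaatcagctgTCAGCAgtagccagcagt
Stx3: ccactagcatcaTAATCCccaaattcctcg
The 30 bases shown for Ctbp2 are chr7:133015351-133015380 and overlap annotated exons of Ctbp2-206 and Ctbp2-215. The first capital letter is at position -121 from the start next to that of the RIBEYE-length transcript. The 30 bases for Cplx3, chr9:57606389-57606418, lie outside annotated exons, with the first capital letter at -125. Those for Stx3, chr19:11819356-11819385, overlap an annotated exon of Stx3-201, with the first capital letter at 31. The windows of Pclo, Bsn, Cacna1f and the other Ctbp2 start, at 133081860, held neither motif. That start also lies within the gene. The start of Ctbp2-201, at 133123367, was in no window and was not examined. A match of letters is a description and does not show binding.

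To place the rises in time, each age was compared with the one before in the same fit. Between E14 and E17, Cacna2d4 was the only member called higher (log2 fold change 1.02 ± 0.13; limma adjusted p = 4.0e-07), with 2.90% of all features called higher and 0.702% lower. Cplx3 stood just under the minimum fold at 0.96 ± 0.14. The count of 1 was not stable, since edgeR called Cacna2d4, Cplx3 and Cplx4, without E17 replicate 1 there were 2 members, and without E17 replicate 3 or with median-of-ratios scaling there were 0. Between E17 and P1, Cacna1f (1.15 ± 0.16), Cacna2d4 (1.76 ± 0.12) and Cplx3 (1.40 ± 0.13) rose, all ribbon-restricted, where 1.23% of features were called higher and 0.614% lower. Cplx4 was under the minimum fold at 0.60 ± 0.14 (limma adjusted p = 0.0029) but was called by edgeR, which made 4 members there. Stx3 was close to the minimum fold at 0.95 ± 0.07. Of the scaffold genes, Bsn, Pclo and Rims2 had log2 fold changes of 0.01, -0.09 and -0.01 at this step. No member was lower at either step, at an unadjusted p under 0.05 by limma or as called by edgeR.

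The step from P1 to P6 held the most calls. All 5 ribbon-restricted members rose, with a median log2 fold change of 2.67, and 2 of 5 general members, Stx3 and Pclo, while the general median was 0.79. This made 7 of 10, against 6.30% of all features called higher and 6.74% lower. Cplx4 rose most (3.92 ± 0.14; limma adjusted p = 7.4e-21), and Cacna1f (3.13 ± 0.16), Cacna2d4 (2.67 ± 0.12), Stx3 (2.56 ± 0.07), Cabp4 (2.15 ± 0.19) and Cplx3 (1.61 ± 0.13) rose too. The place of the low gene Cabp4 among them depends on the pseudocount, since with 0.1 in place of 1 its log2 fold change was 2.81. Pclo rose by 1.04 ± 0.06. Rims2 (0.79 ± 0.08) and Ctbp2 (0.55 ± 0.06) passed the adjusted p alone, and Bsn did not (0.09 ± 0.11; limma adjusted p = 0.54). The summed rod markers were at 180 to 208 CPM at P1 and 3308 to 4103 at P6, and the bipolar markers at 77.6 to 85.6 and 557 to 776.

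Fewer members rose between P6 and P15, the interval in which mouse eyes open. Cabp4 (2.92 ± 0.19; limma adjusted p = 1.4e-13), Cplx4 (2.01 ± 0.14), Cacna1f (1.41 ± 0.16) and Rims2 (1.19 ± 0.08) rose, making 4 of 10, against 4.74% of all features called higher and 3.31% lower. For Cabp4 and Rims2 this step was larger than the one from P1 to P6. Cacna2d4, Cplx3, Stx3, Bsn and Pclo had log2 fold changes of 0.21 to 0.55 and passed the adjusted p alone. Ctbp2 was at -0.10 ± 0.06 (limma adjusted p = 0.21). At this step and the one before, 0 members were lower at an unadjusted p under 0.05 by limma or as called by edgeR.

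**Figure D2:**
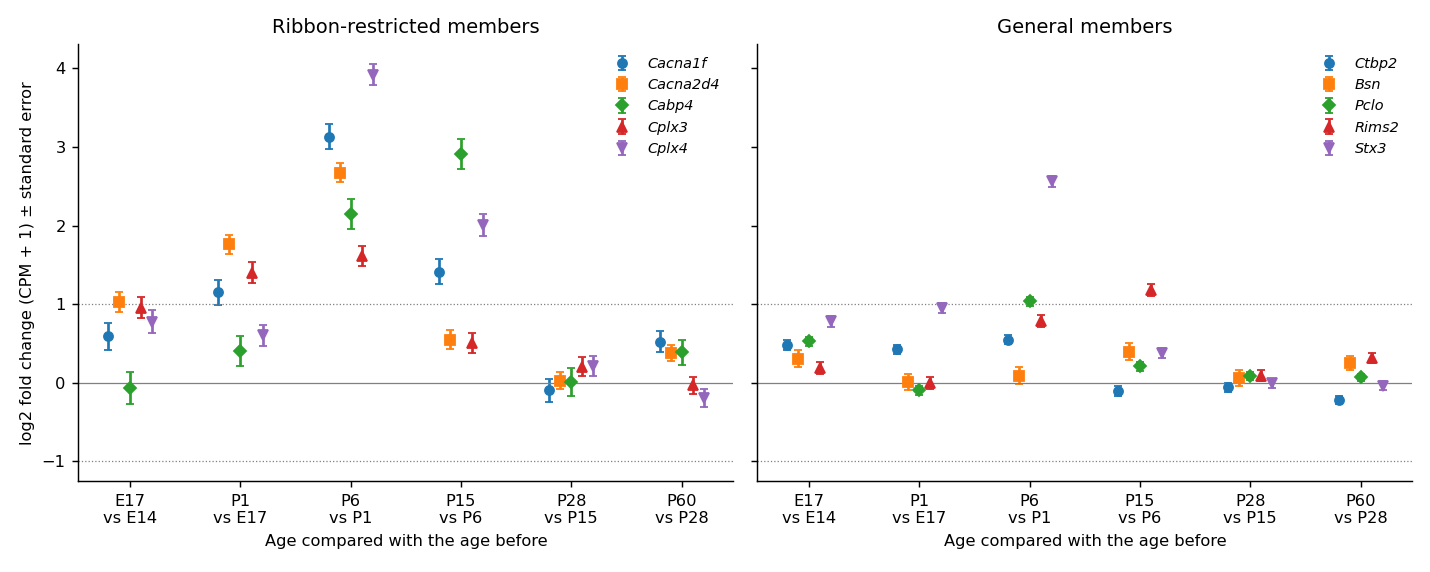
Log2 fold changes on the log2(CPM + 1) scale of the 10 members between each age and the one before, with standard errors from limma; dotted lines mark the minimum fold for a call. The highest values are those of Cplx4 (3.92) and Cacna1f (3.13) from P1 to P6 and of Cabp4 (2.92) from P6 to P15, and from P15 on all points lie between the dotted lines.

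After P15 the levels changed little. From P15 to P28, 0 members were called in either direction by limma or edgeR, and 0 had an unadjusted p under 0.05 by limma, with 0.164% of all features called higher and 0.220% lower. From P28 to P60 no member was called either (0.0756% of features higher and 0.378% lower), and edgeR also called 0. An unadjusted p under 0.05 was found for 6 members. The share of all features at that p was not computed, so no result is drawn from this count. With the adjusted p alone, which 4.80% of features passed as higher and 8.11% as lower, Cacna1f (0.52 ± 0.13), Cacna2d4 (0.38 ± 0.10) and Rims2 (0.32 ± 0.06) were higher at P60 and Ctbp2 was lower (-0.22 ± 0.05; limma adjusted p = 0.0090). The P60 libraries were uneven for several members. Cacna1f was at 262 and 236 CPM in P60 replicates 1 and 2, against 346 to 429 in the other 4, and Cacna2d4 at 521 and 445 against 602 to 758. Bsn was at 225 and 207 CPM in these replicates against 282 to 313, and Rims2 at 806 and 825 against 962 to 1016. Cplx3 was at 194 and 207 CPM against 211 to 275, whereas Cplx4 ran the other way, at 205 and 204 against 167 to 190. The summed rod markers were 24510 and 23989 CPM in replicates 1 and 2 against 25884 to 29525, the cone markers 463 and 460 against 509 to 568, and the bipolar markers 1397 and 1299 against 1541 to 1728. Whether these libraries are the pools or single mice is not stated, and the part of this in the P60 values was not tested.

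How much of the mature level was present at P6 separated the members further. At P6, Cabp4 was at 11.1% of its mature mean, Cplx4 at 23.3% and Cacna1f at 33.9%, so that pore and calcium-binding partner of the channel were still well below their later level. Its auxiliary subunit gene Cacna2d4 was at 60.8% and Cplx3 at 63.9%. Among the general members Rims2 was at 38.8%, Bsn at 68.9%, Stx3 at 77.8%, Pclo at 81.5% and Ctbp2 at 115%. The median was 33.9% for the ribbon-restricted and 77.8% for the general members. Over the 4557 features with a Gene ID that at least doubled between embryonic and mature retina, the median was 60.7%, with quartiles of 38.8% and 85.6%. Bsn and Ctbp2 are not among those features. The P6 percentages include what was already present at E14. At that age Bsn was at 51.7% of its mature mean, Ctbp2 at 41.9%, Pclo at 29.3%, Rims2 at 19.8% and Stx3 at 3.80%. The ribbon-restricted members were at 0.0886% (Cplx4) to 3.63% (Cplx3) at E14. Bsn was at 64.8% at P1 and 68.9% at P6, so a high P6 percentage alone does not show an early rise. Ctbp2 was the only member with its highest mean at P6 (342 ± 11.8 CPM, SD, n = 3), against 263 ± 9.44 at P60 (n = 6).

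**Figure D3:**
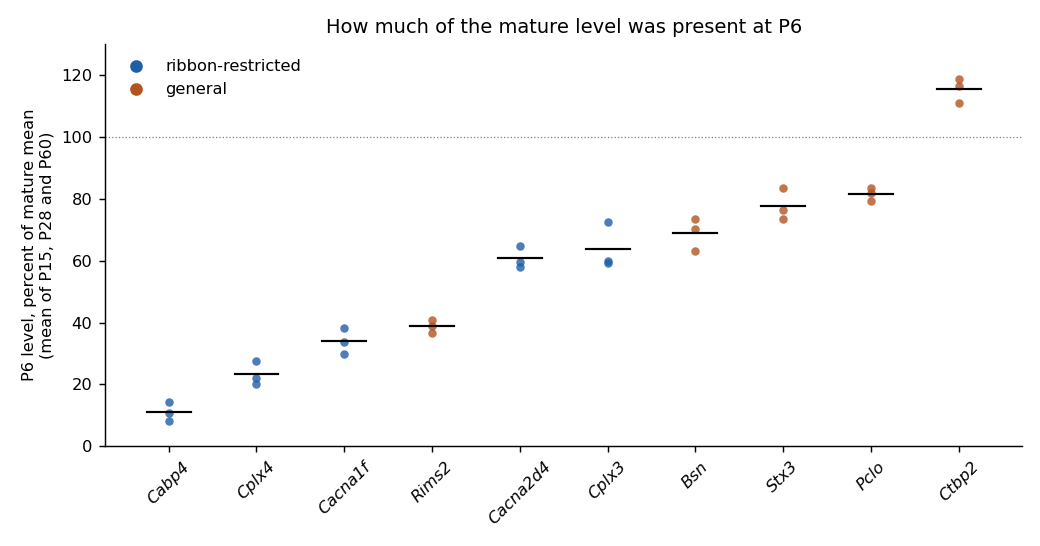
Level at P6 as a percentage of the mature mean (mean of the age means of P15, P28 and P60) for the 10 members, with a point for each of the 3 libraries at P6 and a bar at their mean. The order runs from Cabp4 at 11.1% to Ctbp2 at 115%, and Rims2 at 38.8% is the only general member among the 4 lowest.

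Levels of different genes were compared per kilobase of exon, using the union of annotated exons. At E14 the order ran from Ctbp2 at 19.98 CPM per kb through Rims2 (15.04), Pclo (12.5), Bsn (7.69), Stx3 (4.13) and Cplx3 (2.699) to the remaining ribbon-restricted members, each under 0.7. Together the 5 ribbon-restricted members made up 6.18% ± 0.52 (SD, n = 3) of the summed level per kb of the 10 genes at E14. Their share was 19.4% ± 1.06 (n = 4) at P1, 35.3% ± 1.62 (n = 3) at P6, 48.0% ± 1.79 (n = 4) at P15 and 50.3% ± 1.47 (n = 6) at P60. At P60 Stx3 (107 ± 6.52 CPM per kb, SD, n = 6) and Cplx4 (97.0 ± 7.46) stood at the top, and their ranges over libraries overlapped. Below them were Rims2 (89.5 ± 8.69), Cplx3 (76.5 ± 9.69) and Cacna2d4 (65.3 ± 12.5), each overlapping its neighbor in this order. Pclo (45.1 ± 2.93), Ctbp2 (42.3 ± 1.52), Cacna1f (37.7 ± 8.54) and Cabp4 (28.2 ± 3.999) followed, again with overlap between neighbors. Bsn (17.04 ± 2.81) was lowest, and its range did not reach that of Cabp4. The order depends on the length used. With the longest annotated transcript, Stx3 was at 199 CPM per kb, Rims2 at 194, Cacna2d4 at 107 and Ctbp2 at 73.0, and the ribbon-restricted share was 4.47% at E14 and 41.0% at P60.

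Each member was next set against a related gene as a ratio of levels per kb within each library. These ratios are given as a description. Cacna1f was at a median of 0.0710 times the level of Cacna1d, the Cav1.3 pore gene, in the 6 embryonic libraries, at 1.39 times at P6 and at 3.14 times in the 14 mature libraries. Cacna2d4 went from 0.0650 to 1.58 and 5.37 times the level of Cacna2d1 over the same stages, and Cabp4 from 0.0942 to 0.434 and 2.18 times that of Cabp1. The channel pore and auxiliary subunit genes had thus passed their relatives in all 3 libraries at P6, whereas Cabp4 was below Cabp1 in all 3. In all 14 mature libraries Cacna1f, Cacna2d4 and Cabp4 were each the higher gene of their pair.

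The complexin and syntaxin pairs moved in different ways. Cplx4 was at 0.00726 times the level per kb of Cplx2 in embryonic libraries, 0.196 at P6 and 2.96 in mature libraries. Cplx2, a complexin of conventional synapses, fell between P6 and P15 (534 to 214 CPM as means; log2 fold change -1.33 ± 0.08; limma adjusted p = 4.1e-14), a step at which Cplx4 rose. Cplx3 and Cplx1 were near equal per kb in embryonic libraries (0.956) and Cplx3 was 5.02 times as high at P6, but only 3.31 times in mature libraries, since Cplx1 rose between P6 and P15 (1.40 ± 0.16; limma adjusted p = 1.9e-08). Stx3 was 1.82 times the level per kb of Stx1a in embryonic, 32.9 times at P6 and 98.2 times in mature libraries. Stx1a itself was low throughout, with means of 8.52 CPM at E14 and 2.69 at P60.

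Among the scaffold and ribbon pairs, Ctbp2 was at a median of 0.677 times the level per kb of Ctbp1, the paralog without a RIBEYE form, at E14 and was the lower of the pair in all 3 libraries. The ratio was 1.06 at E17, where Ctbp2 was higher in 2 of 3 libraries, 2.80 at P6 and 3.42 in mature libraries. With the longest annotated transcripts it was 0.939 at E14, 1.46 at E17 with Ctbp2 higher in 3 of 3 libraries, 3.88 at P6 and 4.74 in mature libraries. Ctbp1 fell between embryonic and mature retina, close to the minimum fold (-1.04 ± 0.08; limma adjusted p = 2.1e-13). Rims2 was 2.57 times the level per kb of Rims1 in embryonic libraries, 1.01 times at P6 and 3.52 times in mature libraries. These values depend on the length used, since with the longest annotated transcripts Rims2 was 4.88 times the level of Rims1 in embryonic libraries, 1.92 times at P6 and 6.67 times in mature libraries. Rims1 rose earlier, between E17 and P1 (1.10 ± 0.09; limma adjusted p = 4.3e-10), and had its highest mean at P6 (219 CPM). Bsn was below Pclo per kb in all 27 libraries, at 0.566 times in embryonic and 0.344 times in mature libraries.

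**Figure D4:**
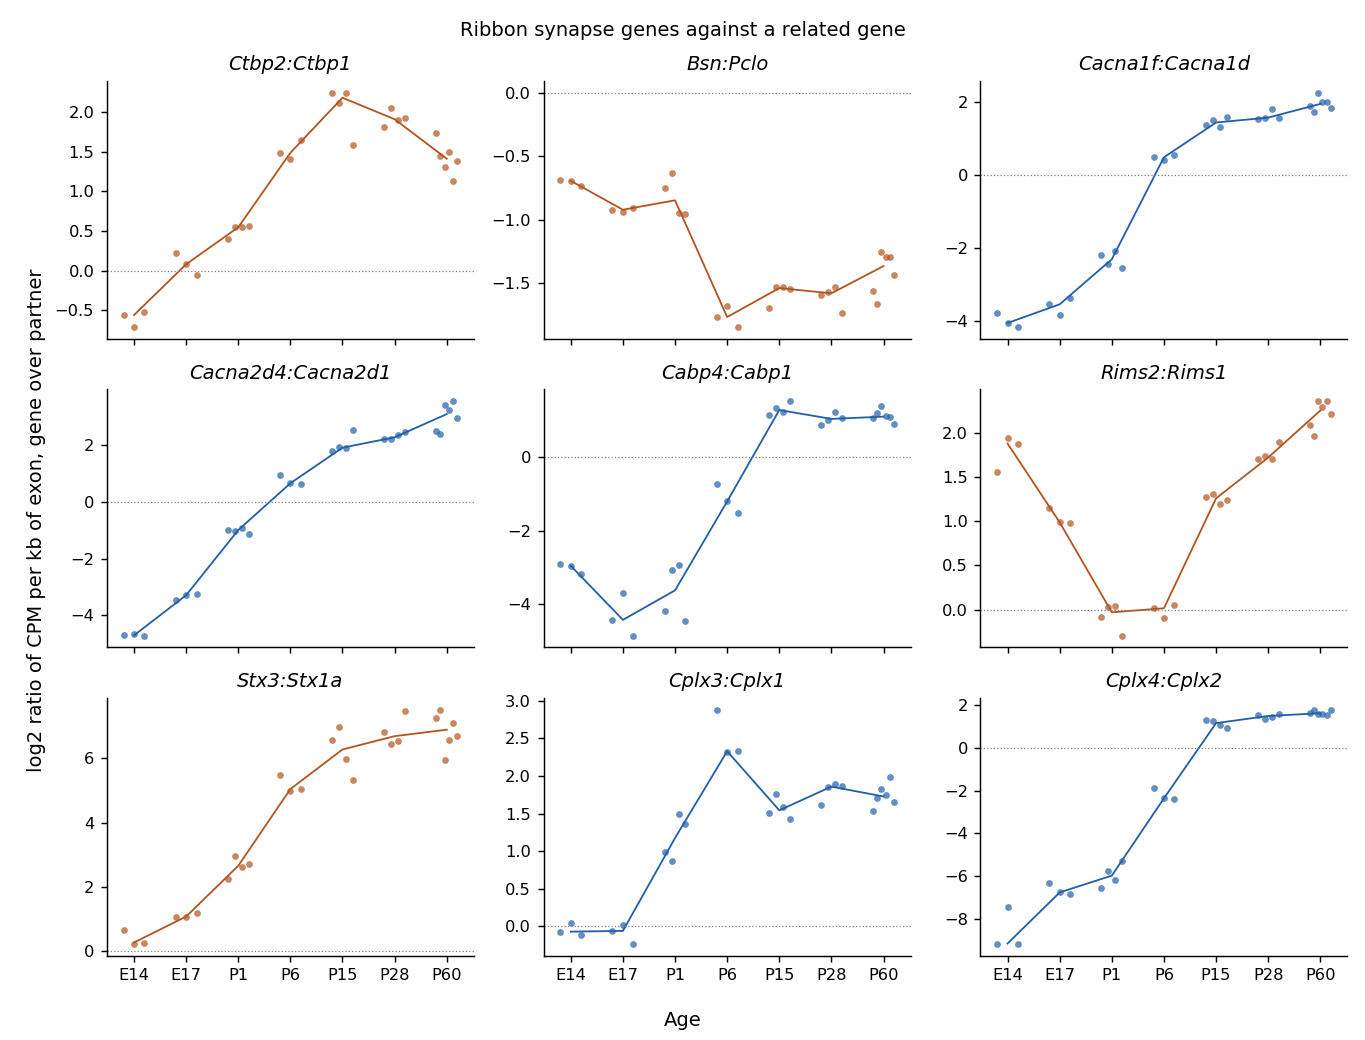
Log2 ratio of the level per kb of exon of each member to that of a related gene in each of the 27 libraries, with a line through the age medians; the dotted line marks equal levels. The 3 channel genes, Cplx4 and Ctbp2 go from below their relatives at E14 to above them in mature retina, Cplx3 starts near equality, while Rims2:Rims1 dips at P1 and P6 and Bsn:Pclo stays below the line.

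Of 28 other presynaptic and ribbon genes, 21 rose and 4 fell between embryonic and mature retina, with a median log2 fold change of 1.96, beside the 14.9% and 16.1% of all features called higher and lower. Those that fell were Erc1 (-1.55), Stx1a (-1.27), Dag1 (-1.22) and Ctbp1 (-1.04), of which Erc1 and Dag1 are named after their values were seen. In the same list 5 rose at the step to E17, 3 at that to P1, 11 at that to P6 and 3 at that to P15, where 1 (Cplx2) fell. Of all features, 2.90%, 1.23%, 6.30% and 4.74% were called higher at these steps in turn, and 3.31% lower at that to P15. At each of the steps to P28 and P60, 4 passed the adjusted p alone, counted over both directions. From P28 to P60, 4.80% of all features passed it as higher and 8.11% as lower. From P15 to P28 that share was not computed. No result about these genes is drawn from the 2 counts. Cacnb2, which encodes the β2 subunit that joins Cav1.4 in the retina and was also picked with its value known, rose from 6.25 CPM at E14 to 178 at P6 and 344 at P60. Its log2 fold change of 5.57 ± 0.06 between mature and embryonic retina (limma adjusted p = 1.9e-35) stood near those of Cacna1f and Cacna2d4.

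The features whose log2(CPM + 1) values ran most like those of Cacna1f over the 27 libraries, among 19902 candidates, were Ppm1n, Pde6g, Unc119, Grk1 and Slc17a7 (Pearson r of 0.996 to 0.997). Pde6g encodes a subunit of the rod phosphodiesterase, Grk1 the rhodopsin kinase and Slc17a7 the vesicular glutamate transporter VGLUT1. For Cplx4 they included Rgs9bp, Herc3, Osbp2 and Gm11342 (r of 0.995 to 0.997), of which Rgs9bp anchors the complex that ends the light response. For Bsn they were F630040L22Rik, Adgrb1, Rusc2, Sec14l1 and Ltbp3, with lower values (r of 0.972 to 0.976). All points share the 7 ages, so these r values describe likeness of course over age and carry no test.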

How the data were processed

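Total RNA of whole retina was made into libraries with a SMARTer total RNA kit, and the authors aligned single-end reads to GRCm38 (mm10) with STAR. The authors deposited 1 table of CPM values with 1 column per library. Its gene annotation and strand setting are not given in the sources used here. Of 38168 features, 14905 had no Gene ID, and 926 symbols occurred more than once. Values were whole multiples of 1 read (100.0% within 0.1 read). These recovered reads served the edgeR test, library depth, read limits, the comparison of same-age libraries and the embryonic read counts with their Poisson intervals. In E14 replicate 1 the step could not be judged automatically, so edgeR was also run without it. Same-age libraries differed by more than sampling noise in all 42 pairs (lowest chi-square per degree of freedom 1.69). Counting error is all that intervals and limits cover.

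Libraries were grouped by the age in their titles. The members and gene lists were chosen with earlier results of these data known. In R 4.3.3, limma 3.58.1 (with its trend option) was fitted to log2(CPM + 1) of all 27 libraries with age as factor, for the 31760 features that reached 1 CPM in 3 or more libraries, with two-sided tests and Benjamini-Hochberg adjustment across that set. Calls needed an adjusted p under 0.05 together with a log2 fold change of 1 or more in either direction. Named were all members, a related gene for each, and for Cacna1f, Cplx4 and Bsn the 5 features with a Gene ID and the highest Pearson r, of which 1 is not reported here. Erc1, Dag1 and Cacnb2 were named after their values were seen. Exon lengths and positions came from GENCODE M21 for GRCm38. Alternatives were a pseudocount of 0.1, no filter, a minimum mean of 10 CPM, the replicate number as a block, median-of-ratios scaling, edgeR 4.0.16 with TMM scaling, no minimum fold, a fit restricted to the ages compared, summed entries of a symbol, the longest transcript as length, and leaving out each library. Tests were tried on simulated data. Python 3.11.15 with pandas 2.3.3 and numpy 2.4.6 was used for the rest.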

Additional observations from a re-analysis of the deposited data

Results flagged for a closer look

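Each member was checked for a library far from the others of its age at P1, P15, P28 and P60, the ages with at least 4 libraries. This made 40 groups of values, of which 2 held such a library, and chance flags about 1 in 20. Cacna2d4 was at 553 CPM in P15 replicate 4, while the other P15 libraries were at 424 to 445. Ctbp2 was at 245 CPM in P60 replicate 2, while the other P60 libraries were at 263 to 272.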

How the results depend on the processing

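The counts of members called were taken for each comparison and direction under each alternative, and many of them were 0 in the main fit. They kept within 1.5 times in 131 of 140 counts under alternatives other than leaving out a library. With a library left out, 128 of 130 counts did so. The exceptions for members called higher were at E17 against E14 (main count 1), with 3 for edgeR, also without E14 replicate 1 (an alternative added after the data were seen), 0 for median-of-ratios scaling, 3 for a pseudocount of 0.1, 7 with no minimum fold change, and 0 to 2 when a library was left out. With no minimum fold change the counts were also 6 for P1 against E17, 9 for P15 against P6 and 3 for P60 against P28, and 1 member was called lower for P60 against P28. Of all features, 4.80% passed the adjusted p alone as higher and 8.11% as lower for P60 against P28. That share was not computed for the other steps, so their counts without a minimum fold change cannot be weighed against it. For mature against embryonic retina, leaving out a library gave 8 or 9 members, the lost call being Ctbp2. The log2 fold changes of single members in the 3 largest comparisons gave 640 values, each for a member in a comparison under an alternative. None of these changed sign, and 7 lost the call, all of them Ctbp2 between mature and embryonic retina. The call was gained by 8, all with no minimum fold change, an alternative that changes the rule and not the fit. Median-of-ratios scaling moved the median of all features by at most 0.07. Replicate numbers did not pair the libraries: deviations of same-numbered libraries had a median correlation of -0.0018 over 69 pairs, and 3 exceeded 0.1. With the replicate block, 8 members were called higher between mature and embryonic retina (Ctbp2 at 0.999 was lost). No other count of members called changed, and that between P1 and P6 stayed at 7. With the longest transcript, 6 of 10 levels per kb at P60 moved by more than their SD. Depth limits the ratios of Cplx4 and Cabp4, which rest on 36 and 45 embryonic reads.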
